A study of Saccharomyces cerevisiae with 10 samples.

Results

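Small suffixed open reading frames are the rows of the yeast tables whose systematic name ends in a hyphen and a letter, such as YKL183C-A. They were chosen by name alone: 456 rows carried such a name, and 451 of the 6677 features were kept. YJL026C-A, YBR298C-A, YHR214C-D, YHR214C-E and YML054C-A were left out by the rule, and they hold some of the largest changes in the tables. The deposited lengths ran from 51 bases for YJR151W-A to 1185 bases for YMR173W-A, the single member of 1000 bases or more, with a median of 225 bases, against 1059 bases over all features. An entry of their own in the RefSeq annotation of assembly R64 exists for 178 members, and every one of these begins with ATG and ends with a stop codon. The other 273 have no entry of their own, 12 of them being listed as synonyms of another gene. No position is given for them, and their overlaps were not examined by position. Of the 178, 150 are annotated as uncharacterized proteins and 28 carry a named product.

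The measurements are PAR-CLIP libraries from nuclear RNA of Saccharomyces cerevisiae, made by sequencing the RNA that UV light has crosslinked to an immunoprecipitated, tagged protein. The compared groups were a Nab3-FRB strain with rapamycin, an Nrd1-FRB strain carrying Rpb2-HTB with rapamycin for 45 min, and a cassette strain without rapamycin, with 2 libraries each. RNA polymerase II (Pol II) is the mapped protein by the design text, its Rpb2 subunit is named in the Nrd1-FRB labels alone, and the growth protocol gives a uracil-limited medium for all strains. In an anchor-away strain, rapamycin ties the FRB-tagged protein to a partner that carries it out of the nucleus. Strain, depletion and rapamycin differ from the cassette together and their parts cannot be told apart. Neither the content of the cassette nor how long the Nab3-FRB cells had rapamycin is given in the sources used here. Nab3 libraries 2 and 3 are named after the numbers in their columns. Separate cultures are not stated for the libraries of a group, and p-values then measure a spread that may be technical.

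Nab3 and Nrd1 are RNA-binding proteins that, with the helicase Sen1, stop Pol II early on short noncoding transcripts and on the first part of certain mRNA genes, and hand the RNA to the nuclear exosome for trimming or decay. Yeast promoters often start transcription in both directions, and the RNA made away from the gene is a common substrate of this pathway. Suffixed names were mostly given after the first reading of the genome, to short frames found later by homology, expression or proteomics. Many lie in the gaps between longer genes, so signal over them can come from transcripts that are not mRNAs of the frame itself.

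The frames below are those the results turn on: 3 whose signal was higher after both depletions, 1 higher after Nrd1 depletion, 1 with opposite changes, 1 lower after Nab3 depletion, and 1 of high signal that overlaps a snoRNA gene. Sequences were read from RefSeq R64 and run 5′ to 3′ on the strand of the frame, with the start and stop codons in capitals. YGR204C-A lies at chrVII:909061-909174 (minus strand), YJL136W-A at chrX:156169-156252 (plus), YKL183C-A at chrXI:98395-98607 (minus), YHR022C-A at chrVIII:151217-151306 (minus), YDR034W-B at chrIV:521314-521469 (plus), YOR161C-C at chrXV:639121-639267 (minus) and YJL047C-A at chrX:349044-349178 (minus). All but YJL047C-A, which overlaps the snoRNA gene SNR60 on the same strand, overlap no other annotated gene.
YGR204C-A: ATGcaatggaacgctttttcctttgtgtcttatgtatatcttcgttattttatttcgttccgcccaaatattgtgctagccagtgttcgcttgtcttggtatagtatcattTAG
YJL136W-A: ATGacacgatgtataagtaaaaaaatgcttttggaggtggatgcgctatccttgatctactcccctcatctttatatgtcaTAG
YKL183C-A: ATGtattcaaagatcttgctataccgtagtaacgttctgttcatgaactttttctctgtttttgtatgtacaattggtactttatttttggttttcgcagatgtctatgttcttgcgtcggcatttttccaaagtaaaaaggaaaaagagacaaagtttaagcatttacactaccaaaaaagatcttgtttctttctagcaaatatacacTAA
YHR022C-A: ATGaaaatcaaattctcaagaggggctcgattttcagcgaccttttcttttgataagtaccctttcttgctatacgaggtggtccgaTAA
YDR034W-B: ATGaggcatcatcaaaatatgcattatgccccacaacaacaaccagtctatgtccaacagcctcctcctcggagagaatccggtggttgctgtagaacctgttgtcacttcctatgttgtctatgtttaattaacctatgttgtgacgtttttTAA
YOR161C-C: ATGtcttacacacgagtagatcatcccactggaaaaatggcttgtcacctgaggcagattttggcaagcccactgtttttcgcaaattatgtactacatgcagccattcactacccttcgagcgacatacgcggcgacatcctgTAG
YJL047C-A: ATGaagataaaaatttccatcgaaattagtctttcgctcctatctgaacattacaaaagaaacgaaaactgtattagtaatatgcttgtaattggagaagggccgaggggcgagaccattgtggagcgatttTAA

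Nrd1 binds GTAA and GTAG, and Nab3 binds TCTT and CTTG, written here as DNA. These letters were searched on both strands of the 300-base window from 250 bases before the first base of each frame through its first 50 bases. TCTTG holds both Nab3 motifs, and CTTGTAA holds CTTG and GTAA overlapping by 1 base. On the strand of the frame, GTAA stood in 73.6% of the windows of the 178 annotated members and in 76.4% of the windows of all 6001 protein-coding starts, GTAG in 57.9% and 54.6%, TCTT in 84.3% and 85.3%, and CTTG in 65.7% and 62.8%. On the other strand the shares were 76.4% and 76.3% for GTAA, 58.4% and 54.6% for GTAG, 88.8% and 92.9% for TCTT, and 74.7% and 74.1% for CTTG. Windows of members and of all starts held these short letters about equally often. The windows of YGR204C-A (chrVII:909125-909424), YHR139C-A (chrVIII:380370-380669) and YJL136W-A (chrX:155919-156218) are printed because these 3 frames had the largest rise common to both depletions among annotated members, and capitals mark the 4 motifs on the strand of the frame. The gene upstream of YGR204C-A begins 38 bases away on the other strand, that of YJL136W-A 41 bases away and that of YHR139C-A 152 bases away. All 3 windows therefore run into those genes.
YGR204C-A: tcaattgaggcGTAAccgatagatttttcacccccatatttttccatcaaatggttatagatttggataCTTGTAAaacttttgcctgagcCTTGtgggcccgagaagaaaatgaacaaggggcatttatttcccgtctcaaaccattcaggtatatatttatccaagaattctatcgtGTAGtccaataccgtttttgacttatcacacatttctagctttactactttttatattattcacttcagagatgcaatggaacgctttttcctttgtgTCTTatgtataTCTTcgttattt
YHR139C-A: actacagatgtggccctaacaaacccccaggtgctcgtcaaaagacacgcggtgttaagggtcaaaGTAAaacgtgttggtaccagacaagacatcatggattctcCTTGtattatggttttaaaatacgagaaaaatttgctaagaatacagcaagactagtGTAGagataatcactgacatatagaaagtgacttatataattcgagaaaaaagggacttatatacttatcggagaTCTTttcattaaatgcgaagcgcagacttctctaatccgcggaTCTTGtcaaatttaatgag
YJL136W-A: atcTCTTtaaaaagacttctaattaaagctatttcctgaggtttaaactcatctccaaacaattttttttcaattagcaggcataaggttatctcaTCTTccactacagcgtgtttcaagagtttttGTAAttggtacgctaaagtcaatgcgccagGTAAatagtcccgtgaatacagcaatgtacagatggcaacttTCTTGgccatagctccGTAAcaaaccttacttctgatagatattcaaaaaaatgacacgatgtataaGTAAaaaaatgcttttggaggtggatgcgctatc
The YGR204C-A window held 2 GTAA, 1 GTAG, 2 TCTT and 2 CTTG on its strand. The YHR139C-A window held 1 GTAA, 1 GTAG, 2 TCTT and 2 CTTG. The YJL136W-A window held 4 GTAA, no GTAG, 3 TCTT and 1 CTTG.

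Values are normalised reads, that is reads per feature divided by the authors' size factor of the library, on 1 scale for the 6 libraries. The libraries held 13428820 and 9046857 reads for Nab3-FRB, 7395659 and 8077260 for Nrd1-FRB, and 12084304 and 9584474 for the cassette. Members took between 0.947% and 0.986% of the reads in all 6 libraries, 72954 to 127352 reads each. So the summed signal over the frames was the same share of a library in every group to within 0.04 percentage points. For the pathway, 11 genes of Nrd1-Nab3-Sen1 termination and nuclear decay were read. After Nab3 depletion 2 of 11 were higher (NRD1, log2 fold change 1.98, and the helicase gene SEN1, 0.99). Another 2 were lower (AIR2, -0.27, and NAB3, -0.16, a call lost under 5 alternatives). Of all features 21.1% were higher and 18.7% lower. After Nrd1 depletion 2 were higher (NRD1, 2.07, and SEN1, 1.13) and 0 lower, against 17.5% and 17.8% of all features. The number of rises was thus near the background. Because the anchor moves protein and leaves the gene in place, these reads do not measure the depletion.

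Signal over the members was low. Their median over the 6 libraries was 53.9 normalised reads, against 1158 over all features, and 41 members had no read in any library. Both cassette libraries were at 0 reads for 48 members, and none of these averaged more than 2.44 normalised reads in Nab3-FRB or 2.06 in Nrd1-FRB. In all, 112 members had a mean under 10, and 27 had a mean of at least 1000. Because members are short, the cassette signal was also taken per kb. The median was 166 normalised reads per kb for members, 346 for the 1074 features with an unsuffixed systematic name, and 905 for all features. Members with a named product had a median cassette mean of 652 normalised reads, uncharacterized members with an entry 67.5, and members with no entry 21.6. Of the 178 with a sequence, 169 had 1 exact copy in the genome and 9 had more, among them YER190C-B with 4 and YHR212W-A with 2, and how reads with several places were treated is not given, so values of these 9 are uncertain.

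**Figure D1:**
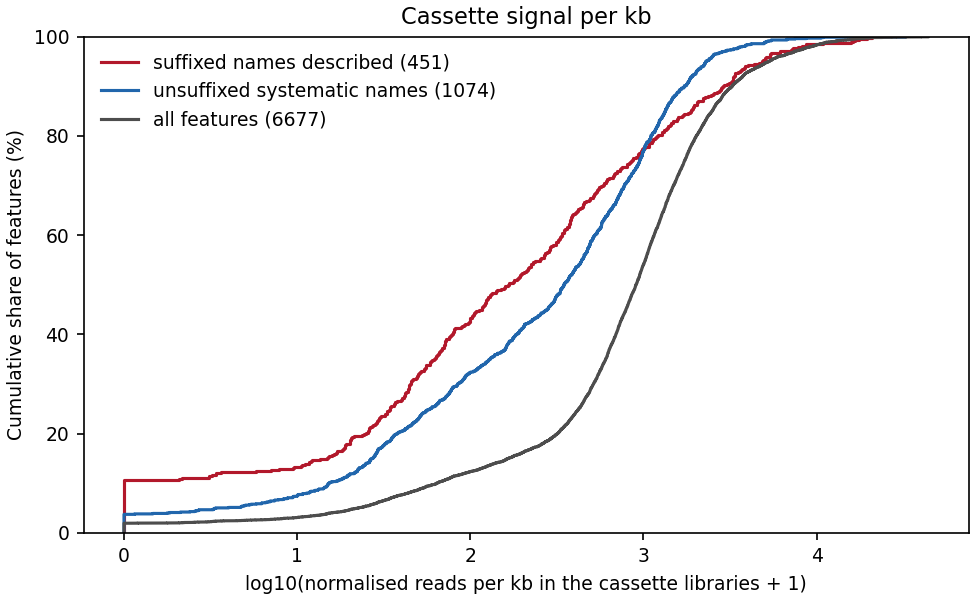
Cumulative share of features (vertical axis, percent) against the cassette signal per kb (horizontal axis, log10 of mean normalised reads per kb plus 1) for the 451 suffixed frames, the 1074 unsuffixed systematic names and all 6677 features. The suffixed frames start highest at 0 and reach their median at 166 normalised reads per kb, against 905 for all features, and the curves meet at high signal.

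A few small frames carried dense signal. Per kb of length, the 5 highest members in the cassette libraries were YER053C-A, YDR524C-B, YGL188C-A, YPL222C-A and YJL047C-A, all below 250 bases long. YER053C-A (chrV:260933-261046, minus strand) had 2778 and 3146 normalised reads in the Nab3-FRB libraries, 2692 and 3240 in the Nrd1-FRB libraries, and 2288 and 2480 in the cassette libraries. Its signal rose by 0.31 on the log2 scale in both comparisons (adjusted p = 0.00155 after Nab3 depletion and 0.0406 after Nrd1 depletion) and all 4 depleted libraries lay above both cassette libraries, but both calls were lost without the trend (the first at 0.0572), and the second also without either cassette library (highest adjusted p = 0.246). YDR524C-B (chrIV:1489598-1489798, minus strand) had 3591 and 3177 in Nab3-FRB, 3578 and 3382 in Nrd1-FRB and 3827 and 4057 in the cassette libraries, and fell by 0.22 after Nab3 depletion (adjusted p = 0.0111, lost under 4 alternatives) but was not called after Nrd1 depletion (-0.18). YPL222C-A, which has no entry, had 4017 and 3926 in Nab3-FRB, 2875 and 3495 in Nrd1-FRB and 3926 and 4311 in the cassette libraries. It was not called after Nab3 depletion (-0.05) and fell by 0.38 after Nrd1 depletion (adjusted p = 0.0264, lost without either cassette library and without the trend). YGL188C-A (chrVII:148824-148964, minus strand), which lies 235 bases upstream of the ribosomal protein gene RPS26A on the same strand, had 2486 and 2822 in Nab3-FRB, 2797 and 2411 in Nrd1-FRB and 2468 and 2479 in the cassette libraries. Both Nab3-FRB libraries lay just above the cassette range and the Nrd1-FRB libraries overlapped it. Neither change was called: its log2 fold changes were 0.10 after Nab3 depletion (adjusted p = 0.223) and 0.07 after Nrd1 depletion (adjusted p = 0.513). YJL047C-A, the frame overlapping SNR60, a box C/D snoRNA gene, had 2930 and 2855 in the Nab3-FRB, 2490 and 2760 in the Nrd1-FRB and 2299 and 2082 in the cassette libraries. It rose by 0.40 ± 0.06 (log2, SE) after Nab3 depletion (adjusted p = 7.52e-05) and by 0.26 ± 0.08 after Nrd1 depletion (adjusted p = 0.0361, lost without either cassette library and without the trend). No row of the tables used here carries the name of the snoRNA, so reads of the snoRNA and of the frame cannot be told apart there.

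The first comparison asked on which of these frames the signal changes when Nab3 leaves the nucleus. In the Nab3 comparison 330 members had a mean of at least 10 and were tested, 92 of them rose and 47 fell. That is 27.9% higher and 14.2% lower, against 21.1% higher and 18.7% lower among all 6360 features tested. The median log2 fold change of the tested members was 0.14, against -0.01 for all features tested. This shift lay at low signal and was shared by all features of that level. With a mean of 10 to 50 over the 6 libraries the median was 0.53 for members and 0.45 for all features. It was 0.14 and 0.19 between 50 and 200, and -0.06 and -0.02 at 200 or more. In every called feature the libraries of the 2 groups did not overlap. Among the tested members, 19 had a cassette mean under 10 and passed through the Nab3-FRB libraries, and 11 of these were called higher, so counts of rises include members that had to be high there. With DESeq2 56 of 330 members rose, 17.0% against 16.0% of all features, so their share was then near the background. With a mean of at least 50, 55 of 219 rose, 25.1% against 20.8%. Without cassette library 1 28 of 331 fell, 8.46% against 10.2% of all features.

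The second comparison asked the same for Nrd1 and used the same cassette libraries. After Nrd1 depletion 323 members were tested, 81 rose and 27 fell. These shares were 25.1% and 8.36%, against 17.5% and 17.8% of all 6347 features tested, and the medians were 0.28 for members and 0.00 for all features. By level, the medians of members and of all features were 0.71 and 0.64 at a mean of 10 to 50. They were 0.35 and 0.37 between 50 and 200, and -0.03 and -0.03 at 200 or more. Here 16 tested members had a cassette mean under 10, of which 7 were called higher. The counts moved with single libraries, for members and for all features alike. Without cassette library 1 35 rose and 4 fell (10.7% and 1.23% of members, against 5.90% and 4.17% of all features), and without cassette library 2 30 rose and 7 fell (9.06% and 2.11%, against 6.29% and 5.01%). Without Nrd1 library 1 49 fell (15.8%, against 24.7%), and without Nrd1 library 2 141 rose and 61 fell (43.5% and 18.8%, against 27.6% and 29.4%).

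Rises were more frequent among features of low signal, members or not. With a mean of 10 to 50 normalised reads, 31.7% of members rose after Nab3 depletion, against 25.8% of all features of that level, and 3.96% fell, against 3.50%. Between 50 and 200 the shares were 35.1% against 34.1% for rises and 7.89% against 11.0% for falls. At 200 or more they were 17.7% against 19.6% for rises and 29.2% against 20.5% for falls. After Nrd1 depletion 22.9% of members and 19.9% of all features rose at a mean of 10 to 50, 29.8% and 30.9% between 50 and 200, and 22.1% and 16.1% at 200 or more. Falls after Nrd1 depletion were 0% against 1.53% in the lowest class, 5.26% against 7.52% in the middle class and 18.6% against 19.9% in the highest. Within a class of level, members and all features were thus called at shares within 10 percentage points of each other. Features with an unsuffixed systematic name are another class with few known products. They gave 263 rises and 129 falls of 957 after Nab3 depletion, 27.5% and 13.5%. After Nrd1 depletion they gave 242 and 116 of 955, 25.3% and 12.1%.

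**Figure D2:**
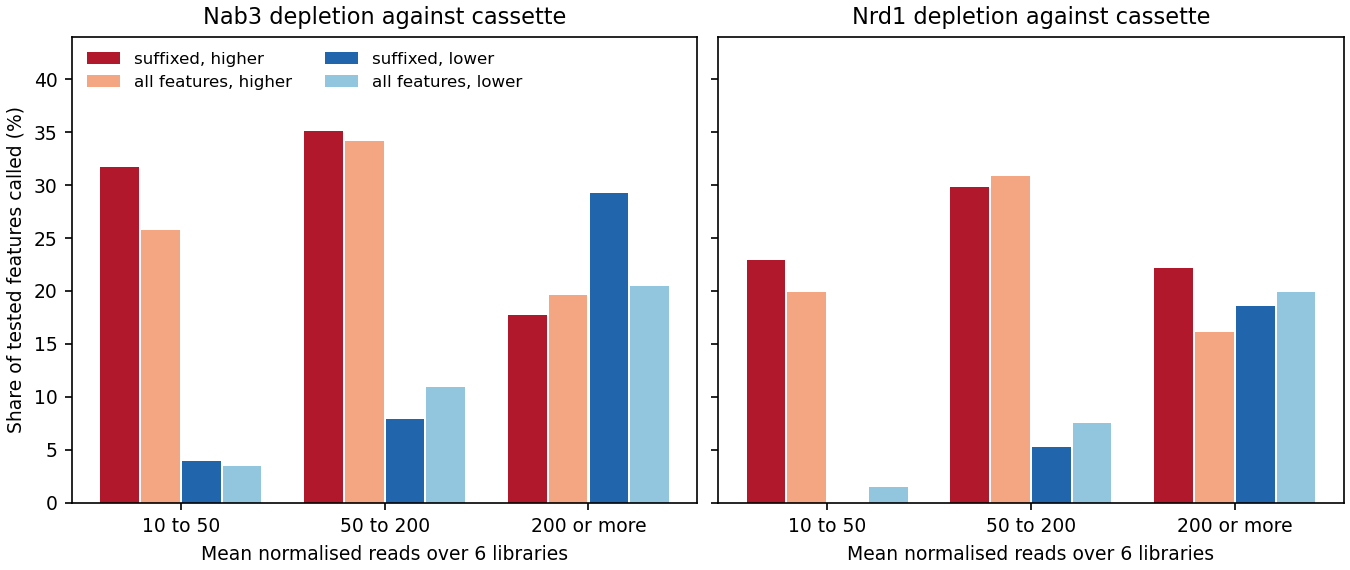
Share of tested features called higher or lower at an adjusted p under 0.05 (vertical axis, percent) in 3 classes of mean normalised reads over 6 libraries (horizontal axis), for suffixed frames beside all features. Rises are most frequent at a mean of 50 to 200 in both groups of features, at 35.1% and 34.1% after Nab3 depletion.

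**Figure D3:**
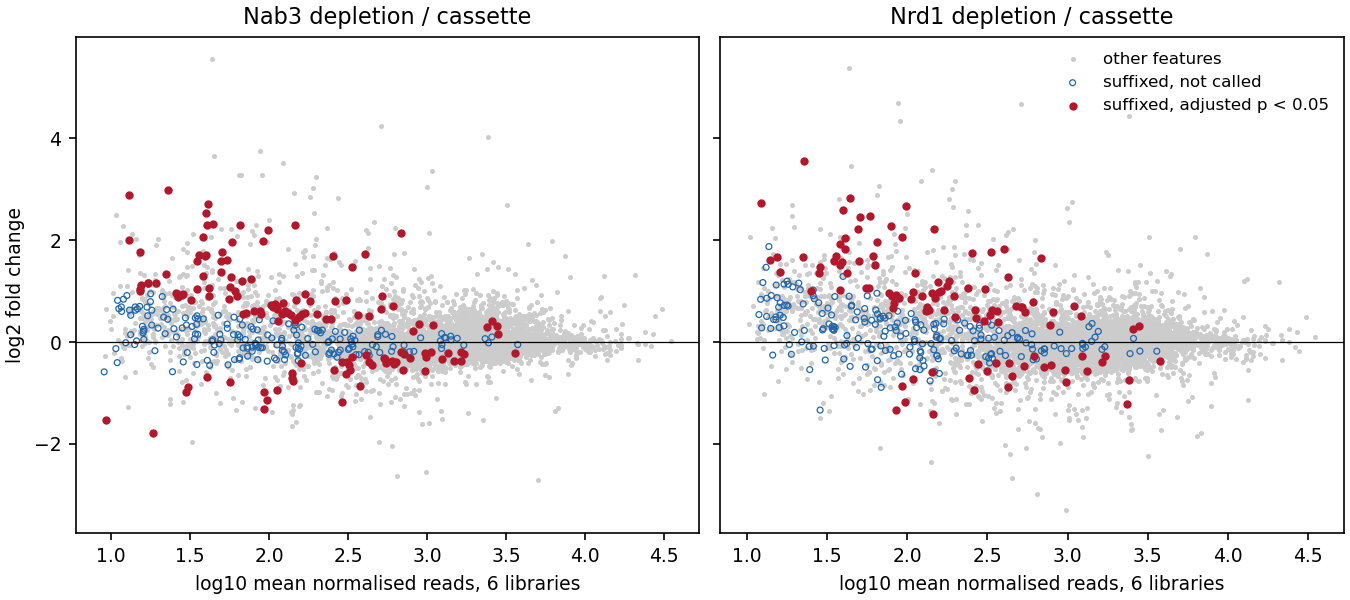
Log2 fold change (vertical axis) against log10 of the mean normalised reads over 6 libraries (horizontal axis) after Nab3 depletion on the left and Nrd1 depletion on the right, both over the cassette. Grey points are other features, open blue points suffixed frames that were not called, and red points suffixed frames called at an adjusted p under 0.05. The called rises sit mainly at the left, and the red point near 2.15 on the left panel is YKL183C-A.

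Replicate error falls along the same axis. For members with a mean of 10 to 50, the 2 libraries of a group differed by a median of 0.30 on the log2 scale in Nab3-FRB, 0.56 in Nrd1-FRB and 0.34 in the cassette. At 200 or more the medians were 0.13, 0.20 and 0.09 for members, against 0.08, 0.10 and 0.06 for all features of that level. Levels were not matched within this class.

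Rises of at least 2-fold were 41 after Nab3 depletion, 12.4% of the members tested, against 3.38% of all features, and 44 after Nrd1 depletion, 13.6% against 3.95%. Among features with an unsuffixed systematic name the shares were 9.30% and 10.4%, nearer to those of members. Of the 41 and 44 members, 37 and 32 had a cassette mean under 50. By the mean over 6 libraries, 25 of the 41 and 21 of the 44 lay in the class of 10 to 50. In that class 25 of 101 members and 74 of 400 features rose at least 2-fold after Nab3 depletion. After Nrd1 depletion 21 of 96 members and 74 of 392 features did. Most such rises of all features, 215 and 251 in all, lay outside that class. At 200 or more they were a smaller share, 82 and 92 of 5463 features. Falls of at least 2-fold were 5 after Nab3 depletion, 1.52% of members against 0.849% of all features, and 4 after Nrd1 depletion, 1.24% against 1.47%. Of the members that rose at least 2-fold, 32 after Nab3 depletion and 29 after Nrd1 depletion have no entry in RefSeq.

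Of the members that rose at least 2-fold, YKL183C-A had the highest mean signal in the Nab3-FRB libraries, and likewise in the Nrd1-FRB libraries. It is an uncharacterized frame whose start lies 113 bases from that of LOT5, a gene on the other strand. It had 1042 and 1093 normalised reads in the Nab3-FRB libraries, 829 and 681 in the Nrd1-FRB libraries, and 237 and 243 in the cassette libraries. The 3 groups did not overlap, and both depleted groups lay above the cassette. The log2 fold change was 2.15 ± 0.08 (SE) after Nab3 depletion (limma, adjusted p = 1.19e-10) and 1.64 ± 0.12 after Nrd1 depletion (adjusted p = 0.000249). In the direct comparison Nab3 depletion gave 0.51 more on the log2 scale (adjusted p = 0.0116), a call lost without either Nab3 library (highest adjusted p = 0.0958). LOT5, whose name refers to its induction at low temperature, had 994 and 1009 in Nab3-FRB, 1089 and 1253 in Nrd1-FRB and 1322 and 1229 in the cassette libraries. Its change was -0.35 after Nab3 depletion, a call, and -0.13 after Nrd1 depletion, which was not called. SPE1, the ornithine decarboxylase gene downstream on the other strand, changed by 0.09 and 0.03 and was called in neither comparison.

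Other annotated frames rose from lower levels. YHR139C-A (chrVIII:380108-380419, minus strand) had 176 and 234 normalised reads in Nab3-FRB, 177 and 208 in Nrd1-FRB, and 38.9 and 41.8 in the cassette libraries. It rose by 2.30 ± 0.18 after Nab3 depletion (adjusted p = 1.65e-07) and by 2.22 ± 0.20 after Nrd1 depletion (adjusted p = 0.000473). Both depleted groups covered the same range, and YHR140W, 152 bases away on the other strand, was not called in either comparison (-0.20 and 0.15). YGR204C-A had 45.7 and 51.2 in Nab3-FRB, 90.6 and 55.8 in Nrd1-FRB, and 5.31 and 14.7 in the cassette libraries, where the last 2 values are 6 and 13 reads. It rose by 2.31 ± 0.38 (adjusted p = 0.00023) and by 2.83 ± 0.49 (adjusted p = 0.006). TDA10, its divergent neighbour, which encodes an ATP-binding protein, was not called (0.16 and -0.05), and ADE3, a gene of one-carbon metabolism downstream on the other strand, rose by 0.32 after Nab3 depletion and was not called after Nrd1 depletion (0.10). YJL136W-A had 67.7 and 62.1 in Nab3-FRB, 107 and 82.3 in Nrd1-FRB, and 18.6 and 13.6 in the cassette libraries. It rose by 1.96 ± 0.26 (adjusted p = 2.87e-05) and by 2.48 ± 0.30 (adjusted p = 0.00162). GLG2, a glycogenin gene that starts 41 bases away on the other strand, fell by 0.33 after Nab3 depletion and was at -0.41 after Nrd1 depletion, not called. None of the divergent neighbours of these 4 frames was called higher in either comparison.

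The orientation of the upstream neighbour was then counted for the annotated frames that overlap no gene. After Nab3 depletion, 9 of 76 tested members whose upstream neighbour lies on the other strand rose at least 2-fold, and 0 of 58 whose upstream neighbour lies on the same strand, 11.8% and 0%, against 3.38% of all features tested. The 9 were YCL048W-A, YGR204C-A, YHL048C-A, YHR139C-A, YJL136W-A, YKL183C-A, YKL096C-B, YOR008C-A and YOR316C-A. After Nrd1 depletion the counts were 12 of 77 and 3 of 56, the 3 being YAL063C-A, YGL006W-A and YLR285C-A, 15.6% and 5.36%, against 3.95% of all features. Counting every call, 18 of 76 and 11 of 58 rose after Nab3 depletion, 23.7% and 19%, against 21.1% of all features. In the Nrd1 comparison 15 of 77 and 11 of 56 rose, 19.5% and 19.6%, against 17.5%. The median level over the 6 libraries was 138 normalised reads in the 76 and 144 in the 58. Of the 9, 6 were among the 19 frames with a mean under 50, where the 58 held 13. These are counts over frames that share libraries and carry no test. YLR285C-A, 109 bases behind the chitinase gene CTS1 on the same strand, averaged 363 normalised reads in Nab3-FRB, 664 in Nrd1-FRB and 252 in the cassette libraries.

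The upstream neighbours of the frames that rose were counted next. Of the members called higher after Nab3 depletion, 16 had a tested upstream neighbour on the other strand, of which 4 were called higher and 3 lower, and 13 had one on the same strand, of which 2 were called higher and 4 lower. Among all features 21.1% were called higher and 18.7% lower in that comparison. After Nrd1 depletion these were 15, with 3 higher and 1 lower, and 14, with 1 higher and 2 lower, where 17.5% and 17.8% of all features were called. Across pairs of a member and its upstream neighbour on the same strand, Pearson's r of the log2 fold changes was 0.17 over 61 pairs after Nab3 depletion and 0.49 over 60 pairs after Nrd1 depletion. For upstream neighbours on the other strand r was 0.06 and 0.19, over 69 pairs each. The pairs share libraries and many low counts, so r is given as a description.

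**Figure D4:**
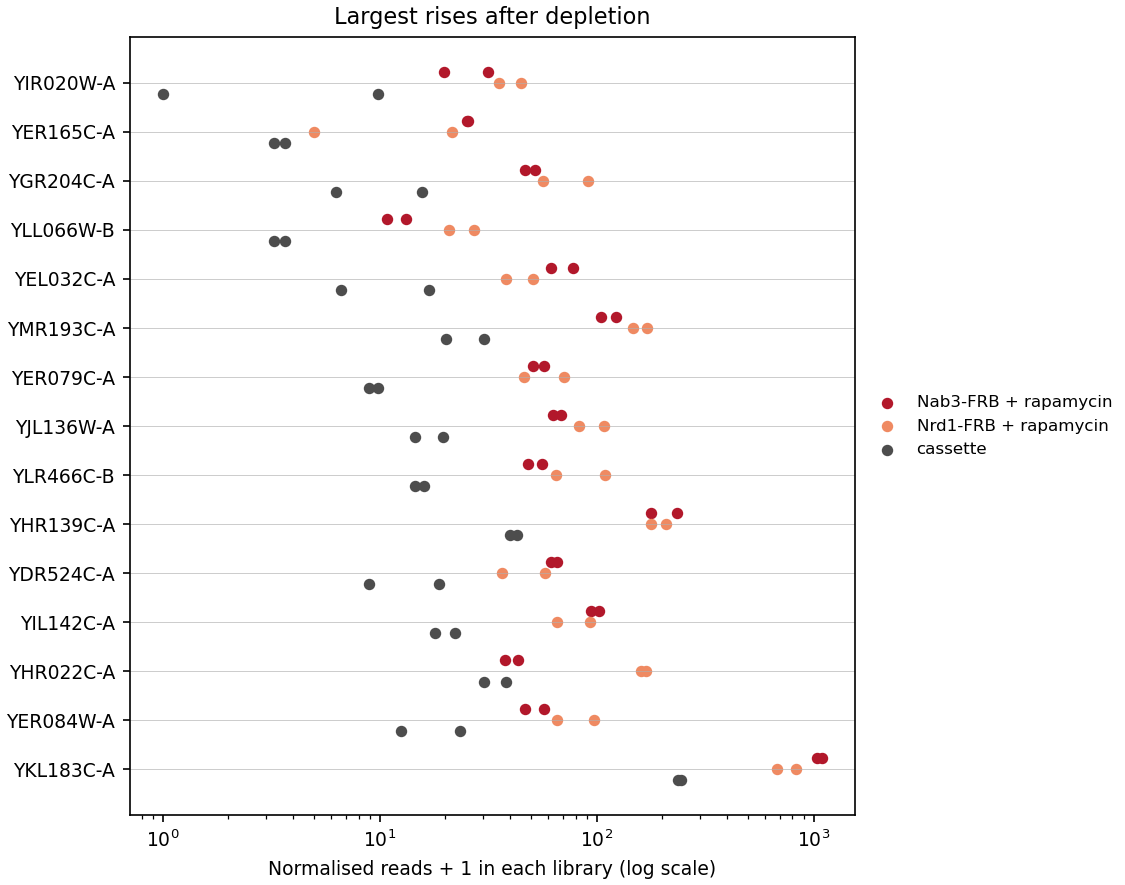
Normalised reads plus 1 in each library (horizontal axis, log scale) for the members with the largest rises in either comparison, with Nab3-FRB above Nrd1-FRB above the cassette in each row. The cassette points lie left of both depleted groups in all rows except YHR022C-A, where the Nab3-FRB points lie next to the cassette points, and YER165C-A, where 1 Nrd1-FRB library does.

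The frames with no entry that rose most had few reads. YIR020W-A had the largest fitted rise in both comparisons, 2.99 ± 0.76 after Nab3 depletion (adjusted p = 0.00612) and 3.54 ± 0.93 after Nrd1 depletion (adjusted p = 0.0251), from 23 and 25 reads in Nab3-FRB and 30 and 26 in Nrd1-FRB against 10 and 0 reads in the cassette libraries. Both calls were lost with DESeq2 and in eBayes without the trend (highest adjusted p = 0.378 and 0.225). YER079C-A was steadier. It had 49.8 and 56.0 normalised reads in Nab3-FRB, 70.1 and 45.1 in Nrd1-FRB and 8.84 and 7.91 in the cassette libraries, and rose by 2.52 ± 0.29 (adjusted p = 8.33e-06) and 2.59 ± 0.36 (adjusted p = 0.00275). YMR193C-A had 122 and 104 in Nab3-FRB, 170 and 146 in Nrd1-FRB and 29.2 and 19.2 in the cassette libraries, and rose by 2.20 ± 0.23 (adjusted p = 3.65e-06) and 2.67 ± 0.27 (adjusted p = 0.000759). YIL142C-A had 93.1 and 101 in Nab3-FRB, 92.1 and 65.0 in Nrd1-FRB and 21.2 and 16.9 in the cassette libraries, and rose by 2.29 ± 0.23 (adjusted p = 1.73e-06) and 1.96 ± 0.30 (adjusted p = 0.00382). In these 3 frames all 4 depleted libraries lay above both cassette libraries. YEL032C-A rose by 2.71 and 2.03, YDR524C-A by 2.30 and 1.83, YLR466C-B by 1.77 and 2.45, and YER084W-A by 1.59 and 2.21, after Nab3 and after Nrd1 depletion. The Nrd1 calls of YEL032C-A and YDR524C-A were lost without cassette library 2 and without the trend. YER165C-A rose by 2.88 ± 0.42 after Nab3 depletion (30 and 20 reads against 3 and 2 in the cassette) and was below the filter in the Nrd1 table, and YLL066W-B rose by 2.73 ± 0.47 after Nrd1 depletion (18 and 15 reads against 3 and 2) and was below the filter in the Nab3 table.

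Members with a named product differ from the rest in what is known and in level. All 28 were tested, and RefSeq notes tie 20 of them to mitochondria. After Nab3 depletion 3 of 28 rose and 9 fell, 10.7% and 32.1%, against 19.6% and 20.5% of all features with a mean of at least 200. After Nrd1 depletion 1 rose and 7 fell, 3.57% and 25%, against 16.1% and 19.9% of such features. Cassette means of the 28 ran from 11.7 to 2821, so not all of them were of that level. Between 50 and 200, 11.0% of all features fell after Nab3 depletion and 7.52% after Nrd1 depletion. The 28 had median log2 fold changes of -0.08 and -0.18. Of the 20 with a mitochondrial note, 2 rose and 8 fell after Nab3 depletion, and 1 rose and 3 fell after Nrd1 depletion. In the Nab3 comparison these are shares of 10% and 40%, against 21.1% and 18.7% of all features. In the Nrd1 comparison they are 5% and 15%, both below the 17.5% and 17.8% of all features. Of the 12 calls after Nab3 depletion, 4 held under every alternative run (TYC1, MIN4 and MCO6 lower, MIN7 higher) and 8 were lost under at least 1. All 8 calls after Nrd1 depletion were lost without cassette library 1. The 28 had a median cassette mean of 652, and 29.2% of all members with a mean of at least 200 fell after Nab3 depletion.

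TYC1 (YBR296C-A, chrII:800123-800242, minus strand), which encodes an inhibitor of the anaphase-promoting complex, had the largest fall of the 28 after Nab3 depletion. It had 66.9 and 70.6 normalised reads in Nab3-FRB, 59.9 and 75.7 in Nrd1-FRB and 164 and 142 in the cassette libraries. No depleted library reached the cassette range, and the changes were -1.14 ± 0.16 (adjusted p = 4.98e-05) and -1.17 ± 0.20 (adjusted p = 0.00606, or 0.0914 without cassette library 1). PHO89, a phosphate transporter gene downstream on the same strand, fell by 1.23 after Nab3 depletion and was at -0.03 after Nrd1 depletion, not called. MCO10 (YOR020W-A), a subunit of the mitochondrial ATP synthase, had 429 and 418 in Nab3-FRB, 288 and 312 in Nrd1-FRB and 623 and 494 in the cassette libraries, and fell by 0.39 ± 0.11 (adjusted p = 0.00907) and 0.89 ± 0.14 (adjusted p = 0.00386). Both calls of MCO10 were lost without cassette library 1 (adjusted p = 0.244 and 0.0543), and the first also without the trend. ATG44 (YIL156W-B), the mitofissin that divides mitochondria during mitophagy, averaged 750 in Nab3-FRB, 676 in Nrd1-FRB and 926 in the cassette libraries and fell by 0.31 (adjusted p = 0.0112, highest 0.0927) and 0.45 (adjusted p = 0.00525, highest 0.093).

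Other mitochondrial frames were called in 1 comparison or in neither. MIN4 (YML007C-A) fell by 0.63 ± 0.10 after Nab3 depletion (adjusted p = 0.00022), and MCO6 (YJL127C-B), a protein of the outer membrane, fell by 0.34 ± 0.06 (adjusted p = 0.000523). RCF3 (YBR255C-A), which associates with respiratory supercomplexes, fell by 0.19, and BOL1 (YAL044W-A), of iron-sulphur cluster assembly, fell by 0.26, calls lost under 5 and 6 alternatives. None of these 4 was called after Nrd1 depletion (-0.29, -0.13, -0.14 and -0.26). MIN7 (YBR201C-A) rose by 0.82 ± 0.14 after Nab3 depletion (adjusted p = 0.00024) and MRA1 (YPR010C-A), a regulator of respiratory complex assembly, by 0.16, a call lost with both other scalings and 6 further alternatives (highest adjusted p = 0.163). MIN10 (YFR032C-B) was the only named product that rose after Nrd1 depletion, by 0.51 ± 0.12 (adjusted p = 0.0183). COI1 (YDR381C-A), an assembly factor of respiratory complexes, and COQ21 (YBR230W-A) were called in neither comparison (0.16 and -0.03, and -0.19 and 0.04). The remaining calls among named products after Nrd1 depletion were falls of MNC1 (YBR056W-A), DPI8 (YJL133C-A), CMI8 (YDR461C-A) and CPP3, by 0.57, 0.27, 0.73 and 1.41. MNC1 partly overlaps the member YBR056C-B by its RefSeq note, so reads may be shared between them.

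Falls of frames without a named product were fewer than rises and mostly smaller. YOR161C-C had 5 and 8 reads in the Nab3-FRB libraries, 16 and 18 in the Nrd1-FRB libraries and 30 and 20 in the cassette libraries. Its fall after Nab3 depletion was 1.79 ± 0.41 on the log2 scale (adjusted p = 0.00299), and no fall was called after Nrd1 depletion (-0.05). YDR169C-A fell by 1.53 ± 0.50 after Nab3 depletion from still fewer reads, 11 and 2 against 18 and 14, and the call was lost without the trend, with DESeq2 and without Nab3 library 3 (highest adjusted p = 0.233). YBR056C-B had 64.5 and 49.9 normalised reads in Nab3-FRB, 77.5 and 77.0 in Nrd1-FRB and 163 and 124 in the cassette libraries, and fell by 1.31 ± 0.19 (adjusted p = 7.27e-05) and 0.87 ± 0.20 (adjusted p = 0.0163, lost without either cassette library). By its RefSeq note MNC1, which also fell after Nrd1 depletion, partly overlaps YBR056C-B, so the 2 falls may rest on shared reads. YPL119C-A lies 123 bases behind DBP1, an RNA helicase gene on the same strand. It fell by 0.98 ± 0.18 after Nab3 depletion (adjusted p = 0.000565), and DBP1 fell by 0.88 in the same comparison. YGR146C-A fell by 0.94, YCR081C-A by 0.86 and YMR172C-A by 0.89 after Nab3 depletion, the last call being lost with DESeq2, without cassette library 1 and with all 6 libraries in 1 fit. YOR186C-A had 856 and 904 in Nab3-FRB, 681 and 830 in Nrd1-FRB and 1269 and 1326 in the cassette libraries, and fell by 0.56 ± 0.07 (adjusted p = 1.03e-05) and 0.79 ± 0.10 (adjusted p = 0.00218). YDL085C-A fell by 0.54 and 0.93, and YFR052C-A fell by 1.34 after Nrd1 depletion, a call lost without either cassette library and without the trend.

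Whether the 2 depletions differ was tested directly between the 4 depleted libraries, in a fit of all 6. Of 339 members tested, 20 were higher after Nab3 depletion than after Nrd1 depletion and 38 were lower, 5.90% and 11.2%, against 12.1% and 8.91% of all 6385 features tested. The medians were -0.06 for members and 0.00 for all features. Scaling by upper quartile turned the split of all features round, with 633 higher and 811 lower, against 772 and 569 with the authors' factors. Members were then 5.01% higher and 12.4% lower, against 9.91% and 12.7% of all features. With scaling to the same total the shares were 4.72% and 11.8%, against 9.81% and 11.3%. Under both scalings the share of members called lower was thus near that of all features. The counts of members moved with single libraries. The shares of all features moved in the same direction in these settings. Without cassette library 1 members had 11 higher and 23 lower (3.22% and 6.73%, against 7.62% and 4.79% of all features), and without cassette library 2 also 11 and 23 (against 7.67% and 4.82%). Without Nab3 library 2 the counts were 6 and 9 (1.77% and 2.65%, against 4.91% and 2.60%), and without Nab3 library 3 they were 4 and 12 (1.18% and 3.54%, against 4.34% and 2.10%). Without Nrd1 library 1 32 were higher (9.70%, against 14.4%), and without Nrd1 library 2 the counts were 34 and 65 (10.1% and 19.3%, against 18.1% and 14.4%). Without the trend in eBayes 12 were higher (3.54%, against 6.83%).

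YHR022C-A was one of the clearest differences. This 90-base frame starts 359 bases from MYO1, the gene of a cytokinesis myosin on the other strand. It had 36.7 and 42.6 normalised reads in the Nab3-FRB libraries, 159 and 169 in the Nrd1-FRB libraries, and 29.2 and 37.3 in the cassette libraries. The Nab3-FRB libraries overlapped the cassette range, and both Nrd1-FRB libraries lay above all others. The rise after Nrd1 depletion was 2.27 ± 0.22 (adjusted p = 0.00063), the change after Nab3 depletion was 0.26 ± 0.24 (adjusted p = 0.435), and Nab3 against Nrd1 depletion was -2.02 ± 0.22 (adjusted p = 0.000781). MYO1 was at 0.17 after Nab3 depletion, a called rise, and at -0.12 after Nrd1 depletion, not called. The gene downstream on the same strand, YHR022C, rose after both depletions, by 0.91 after Nab3 depletion and by 0.37 after Nrd1 depletion.

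YBR085C-A (chrII:418907-419164, minus strand) was abundant and fell after Nrd1 depletion. It had 2944 and 2967 normalised reads in Nab3-FRB, 1122 and 1326 in Nrd1-FRB, and 2785 and 2864 in the cassette libraries. The Nrd1-FRB libraries lay below all others, with a change of -1.21 ± 0.08 against the cassette (adjusted p = 0.000209), and Nab3 depletion was at 0.07 ± 0.05 (adjusted p = 0.334). The direct difference was 1.28 ± 0.08 (adjusted p = 6.33e-05). Neither neighbour was called lower with it. IST2, a membrane-tethering gene upstream on the same strand, was called in neither comparison (0.09 and 0.15), and AAC3, an ADP/ATP carrier gene downstream on the other strand, rose in both (0.94 and 0.78).

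Calls in opposite directions were made for 3 members. CPP3 (YDR034W-B), a tail-anchored protein of the plasma membrane whose frame lies between a tRNA gene and ARO3, had 207 and 223 normalised reads in Nab3-FRB, 81.8 and 42.5 in Nrd1-FRB, and 152 and 166 in the cassette libraries. The 3 groups did not overlap. It rose by 0.43 ± 0.13 after Nab3 depletion (adjusted p = 0.0137, lost with DESeq2, without cassette library 1 and with all 6 libraries in 1 fit, highest 0.269) and fell by 1.41 ± 0.31 after Nrd1 depletion (adjusted p = 0.0129, lost without either cassette library, highest 0.0868). The direct difference was 1.84 ± 0.27 (adjusted p = 0.00279) and held under every alternative run (highest 0.0404). YHL019W-A, which has no entry, had 2966 and 3340 in Nab3-FRB, 1507 and 1545 in Nrd1-FRB and 2442 and 2698 in the cassette libraries. Its changes were 0.29 ± 0.07 (adjusted p = 0.00261, or 0.071 without the trend) and -0.75 ± 0.07 (adjusted p = 0.00047), and the direct difference was 1.04 ± 0.07 (adjusted p = 0.000114). YDR183C-A, also without an entry, had 393 and 387 in Nab3-FRB, 745 and 730 in Nrd1-FRB and 495 and 487 in the cassette libraries. It fell by 0.33 ± 0.09 (adjusted p = 0.00758, or 0.072 without cassette library 1) and rose by 0.59 ± 0.08 (adjusted p = 0.00298), with a direct difference of -0.92 ± 0.08 (adjusted p = 0.000277).

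**Figure D5:**
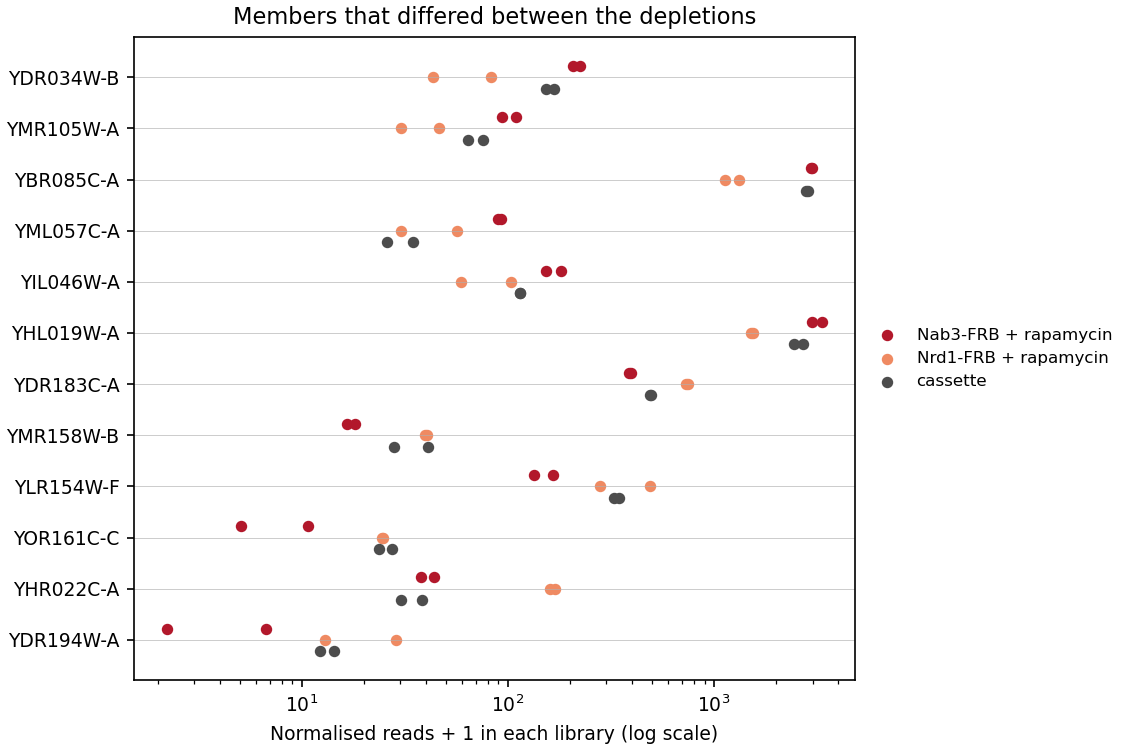
Normalised reads plus 1 in each library (horizontal axis, log scale) for the members with the largest differences between the depletions or with calls in opposite directions, with Nab3-FRB above Nrd1-FRB above the cassette in each row. Rows run by the log2 difference of Nab3 over Nrd1 depletion, 1.84 for YDR034W-B at the top and -2.32 for YDR194W-A at the bottom.

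The other members with large differences had lower signal. YMR105W-A, which starts 457 bases from the phosphoglucomutase gene PGM2 on the other strand, had 92.2 and 108 normalised reads in Nab3-FRB, 45.3 and 29.2 in Nrd1-FRB and 62.8 and 74.5 in the cassette libraries. Nab3 against Nrd1 depletion was 1.43 ± 0.26 (adjusted p = 0.00616, or 0.071 without Nab3 library 3), and PGM2 was also called higher after Nab3 than after Nrd1 depletion. YML057C-A and YIL046W-A were higher after Nab3 than after Nrd1 depletion by 1.14 and 1.09. YIL046W-A stands 177 bases upstream of MET30, an F-box gene of sulphur metabolism on the same strand, whose own difference was 0.22. YOR161C-C, YLR154W-F and YMR158W-B were lower after Nab3 than after Nrd1 depletion, by 1.74, 1.31 and 1.21. YLR154W-F had 132 and 164 in Nab3-FRB, 487 and 277 in Nrd1-FRB and 325 and 344 in the cassette libraries, and fell by 1.18 ± 0.13 after Nab3 depletion (adjusted p = 5.01e-06). Its name belongs to the ribosomal DNA repeats, so its reads may be shared among copies and are uncertain. YDR194W-A had 7 and 1 reads in Nab3-FRB, 19 and 9 in Nrd1-FRB and 15 and 10 in the cassette libraries, and its difference of -2.32 ± 0.62 (adjusted p = 0.0304) was lost under 5 alternatives, DESeq2 among them. It lies 375 bases upstream of REF2, an RNA end-processing gene on the same strand, which rose by 1.34 after Nab3 and 1.42 after Nrd1 depletion.

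The authors' deposited tables, from their own test, gave adjusted p-values for 410 members in the Nab3 comparison, 59 higher and 30 lower at 0.05, and for 407 in the Nrd1 comparison, 55 higher and 19 lower. Over all features those tables held 1025 higher and 769 lower of 6560, and 760 higher and 788 lower of 6558. By these counts, members rose at a slightly lower share than all features after Nab3 depletion, unlike in the main fit. After Nrd1 depletion they rose at a somewhat higher share. Their share of falls was lower than that of all features in both comparisons.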

How the data were processed

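Each library column deposited by the authors holds a normalised signal, a read number per open reading frame over a size factor of that library, set apart for each table. The values show this: 100% of them equal a whole number of reads times 1 constant, to within 0.01 reads. Per the file headers, the authors' comparison tables hold p-values, raw and adjusted, and log2 fold changes. Per the submitters' processing notes, Bowtie 1.1.1 and DESeq were used, with R64 and sacCer3 as builds. How reads were counted, with which strand setting, and what was done with reads of several places is not given in the sources used here, so reads of a frame and of a gene overlapping it cannot be told apart.

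Each depletion was compared with the cassette within its own table, by limma 3.58.1 in R 4.3.3 (lmFit, eBayes with a trend) on log2(value + 1). Features needed a mean of 10 or more, p was adjusted by Benjamini-Hochberg over all of them, and the threshold was 0.05. The added 1 draws the fold change of a low feature towards 0. A fitted change can also exceed the log2 ratio of the group means, as for YIR020W-A, with 10 and 0 cassette reads. An adjusted p is from limma unless another tool is named. For the comparison between depletions and for all printed values, the Nrd1 table was multiplied by 1.18, which makes its cassette columns equal to those of the Nab3 table; the recovered cassette reads differed for 0 features. In data simulated from the real means and library sizes, limma called 64 of 67 features changed 2-fold in the Nab3 design (6348 tested) and 63 of 67 in the Nrd1 design (6341 tested), and 47 and 40 of 67 changed 1.5-fold. The simulation set the same extra spread between libraries for every feature. Its changed features were drawn from all features with a mean of at least 10. Recovery among members, whose signal is lower, was not measured.

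The alternatives were other pseudocounts, filters and scalings, eBayes without a trend, edgeR 4.0.16 and DESeq2 1.42.0 on the recovered reads, leaving out each library, all 6 libraries in 1 fit, and a replicate block. Positions and sequences are from RefSeq R64, where the deposited length of all 178 matched members equals the annotated length. The 4 samples of the 2 groups without values here, Nab3-FRB without rapamycin and Nab-HTB, were not analysed here.

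Members, lists and classes of level were chosen with earlier results of these data known. The rule for named members took, among calls with groups that did not overlap, the 10 largest rises and falls for each depletion and the 5 largest each way between depletions, together with the 5 highest in cassette signal per kb and those with opposite calls. Members with a named product, members counted by neighbour and the neighbours themselves were named outside that rule, with their values known. PCR copies of a molecule cannot be recognised without identifiers, so read numbers give counting error only.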

Additional observations from a re-analysis of the deposited data

Results flagged for a closer look

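The direct test of Nab3 against Nrd1 depletion in the fit of 6 libraries called 20 members higher and 38 lower (limma, adjusted p under 0.05). Of these, 12 are listed here, the 5 largest differences each way and the members with calls in opposite directions against the cassette. On the log2 scale, Nab3 over Nrd1 depletion was 1.84 for YDR034W-B, 1.43 for YMR105W-A, 1.28 for YBR085C-A, 1.14 for YML057C-A, 1.09 for YIL046W-A and 1.04 for YHL019W-A. It was -0.92 for YDR183C-A, -1.21 for YMR158W-B, -1.31 for YLR154W-F, -1.74 for YOR161C-C, -2.02 for YHR022C-A and -2.32 for YDR194W-A. The calls of YBR085C-A, YDR034W-B, YDR183C-A, YHL019W-A and YHR022C-A held under all 15 alternatives run for them. The others were lost under at least 1 alternative, with YML057C-A lost under 6 and YDR194W-A under 5. The rapamycin time is given for Nrd1-FRB alone and only those labels name Rpb2-HTB, so the depleted protein, the time and the tagged protein cannot be told apart in these differences.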

How the results depend on the processing

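After Nab3 depletion, the main counts of 92 rises and 47 falls became 56 rises with DESeq2 and 55 with a mean of at least 50, 31 falls with all 6 libraries in 1 fit, and 29 rises and 27 falls over members known to overlap no gene, which are fewer by construction. Leaving out 1 library gave 80 to 90 rises and 28 to 56 falls. After Nrd1 depletion, the main counts of 81 and 27 became 26 and 16 over members known to overlap no gene, and leaving out 1 library gave 30 to 141 rises and 4 to 61 falls. Between depletions, the main counts of 20 and 38 became 12 higher without the trend and 12 lower over members known to overlap no gene, and leaving out 1 library gave 4 to 34 higher and 9 to 65 lower. The cause was not tested. Other counts stayed within 1.5 times. With the 5 names the rule leaves out, the counts were 95 and 49, 85 and 28, and 20 and 40.

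Over the members named by rule, 522 of 554 values in the Nab3 comparison, 545 of 597 in the Nrd1 comparison and 555 of 616 between depletions kept their direction and their side of the threshold, or moved by less than their spread, and no called value changed sign.

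With the replicate number as a block, the Nrd1 comparison gave 90 rises and 35 falls. Libraries of the same number did not deviate together (r = 0.01 over 6347 features). This single correlation cannot show whether a number marks a shared culture, day or batch. The labels do not say that it does, so the main fit had no block. No paired analysis was possible for Nab3 because its columns share too few numbers with the cassette.

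Depth limits these frames: 41 members had no read anywhere, where no change was detectable. The filter left out 121 members after Nab3 depletion and 128 after Nrd1 depletion. With no filter 80 and 84 of these were tested, of which 7 and 4 were called higher and 1 and 0 lower.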
